A study of Mus musculus with 3 samples.

Results

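The set described here consists of glutamatergic nuclei of the adult mouse basolateral amygdala (BLA) in which *Otof* and *Cdh13* transcripts were detected and *Grik1* transcripts were not. It held 154 nuclei, 104 in library 2 and 50 in library 3, out of 1306 glutamatergic nuclei in these libraries (819 and 487) and 9199 barcodes in the whole series. Members were chosen by measured transcript counts, as unique molecular identifiers (UMIs). A barcode with more than 200 genes and less than 20% mitochondrial UMIs entered the glutamatergic base if *Slc17a7* and *Slc17a6* together had at least 1 UMI, *Gad1* and *Gad2* had none, and *Slc1a2* and *Slc1a3* made up less than 0.1% of its UMIs. Of the base, nuclei with at least 2 *Otof* UMIs, at least 4 *Cdh13* UMIs, no *Grik1* or *Pde11a* UMI, and fewer than 2 UMIs each of *Rspo2* and *Rorb* were members. These genes are therefore given as a description, without a test, and so are *Trabd2b*, *Glis3* and *Smoc1*, which had been put forward as markers of these nuclei with results of the same data in view.

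Nuclei came from male mice whose genotype was given as C57BL/6NRj at postnatal day 56, under 1 condition, with no transgene, deletion or treatment named for any sample. Each dataset pooled BLA tissue of 4 brains of a single litter, microdissected from both hemispheres, and was sequenced with 10x 3' chemistry, so that animals cannot be told apart within a library. Whether the libraries hold different brains or the same ones is not given in the sources used here, and the spread between them may therefore be technical. Library 1 held 819 barcodes and 58 base nuclei, of which 1 met the member gates, and it entered no comparison. Libraries 2 and 3 held 3792 and 4588 barcodes with 24354374 and 33049068 UMIs, and 7 barcode sequences occurred in both, none of them a member.

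The BLA is a pallial structure without layers, made up of lateral and basal nuclei, and its principal neurons use glutamate. *Otof* encodes otoferlin, a calcium-binding ferlin known for vesicle release at the ribbon synapse of inner hair cells. *Cdh13* encodes T-cadherin, a cadherin without a transmembrane domain that is held to the membrane by a lipid anchor. *Grik1* encodes the kainate receptor subunit GluK1, *Rspo2* a secreted amplifier of Wnt signalling and *Rorb* a nuclear receptor found in subsets of cortical projection neurons. On GRCm38, *Otof* (ENSMUSG00000062372) lies on chromosome 5 from 30367062 to 30461932 on the minus strand, *Cdh13* (ENSMUSG00000031841) on chromosome 8 from 118283733 to 119324921 on the plus strand, and *Grik1* (ENSMUSG00000022935) on chromosome 16 from 87895900 to 88290265 on the minus strand. UMIs were counted per gene, without assignment to exons or introns in the deposited matrices.

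Members made up 12.7% of the base in library 2 (95% exact binomial interval 10.5 to 15.2) and 10.3% in library 3 (7.72 to 13.3), a mean of 11.5% ± 1.72 (SD, n = 2 libraries). The intervals overlapped and cover counting error only. Another 86 and 48 nuclei met the same gates with at least 1 *Grik1* UMI, so that members were 54.7% and 51.0% of all *Otof Cdh13* nuclei. The share depended on the gate. With at least 3 *Otof* and 6 *Cdh13* UMIs it was 6.82%, and with at least 1 and 2 UMIs it was 18.3%. In nuclei thinned to 4900 UMIs before gating it was 6.13%.

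The median depth of members was 10777 UMIs in library 2 and 12057.5 in library 3, with 3303 and 3253.5 genes. Each member was matched by UMI total to 2 other base nuclei of its library, and these 208 and 100 nuclei had medians of 10793 and 12013.5 UMIs. The matched nuclei are called the others below. They included 29 and 10 nuclei of the *Otof Cdh13* set with *Grik1*, 28 and 14 nuclei with at least 2 *Rspo2* UMIs and 23 and 9 with at least 2 *Rorb* UMIs, while 52.4% and 53% of them had no *Otof* UMI. *Otof Cdh13* nuclei with *Grik1* were deeper than members in both libraries, with medians of 15062.5 and 14045 UMIs.

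Within members, *Otof* ranged from 2 to 12 UMIs in both libraries, with medians of 4 and 3. *Cdh13* ranged from 4 to 85 UMIs (median 16) in library 2 and from 4 to 72 (median 15) in library 3. Many members sat at the edge of the *Otof* gate, 30 of 104 and 22 of 50 with exactly 2 UMIs, and few at that of *Cdh13*, 6 and 3 with exactly 4. Summed over nuclei and given as CPM, the UMIs of a gene scaled by TMM to a common library total, *Otof* was at 327 and 285 CPM in members (library 2, then library 3, here and below) and at 145 and 93.3 CPM in the others. *Cdh13* was at 1363 and 1508 CPM against 563 and 759. *Slc17a7*, the main vesicular glutamate transporter of the pallium, had at least 1 UMI in 92.6% ± 3.67 of members and *Slc17a6* in 17.6% ± 5.06 (SD, n = 2).

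The put-forward markers were found in a minority of members. *Smoc1*, which encodes a secreted protein of the SPARC family, was found in 28.0% ± 5.63 of members, *Glis3*, a zinc finger transcription factor, in 19.5% ± 5.00 and *Trabd2b*, a membrane protease that inactivates Wnt proteins, in 18.6% ± 0.870 (SD, n = 2). None of these 3 genes was found in 62 of 104 (59.6%) and 27 of 50 (54%) members, and all 3 were found in 9 and 3. Oligodendrocyte nuclei, taken as background and with medians of only 2497 and 2248.5 UMIs, held a UMI of *Smoc1* in 12.1%, of *Glis3* in 3.27% and of *Trabd2b* in 0%. Whether oligodendrocytes express these genes themselves was not tested. With every nucleus thinned to 4900 UMIs, which left out 12 and 3 members and left only 20 oligodendrocyte nuclei in each library, *Glis3* was found in 11.3% of members, 4.59% of the others and 15% of oligodendrocyte nuclei. For *Smoc1* these shares were 16.7%, 8.05% and 7.5%, and for *Trabd2b* 12.4%, 5.62% and 0%. The few oligodendrocyte nuclei left were the deepest of their kind and held a UMI of the neuronal gene *Snap25* in 30% (library 2) and 65% (library 3), so that they are a poor measure of background.

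As CPM, *Smoc1* was at 53.5 and 50.3 in members and 14.7 and 32.7 in the others. *Glis3* was at 40.5 and 55.1 against 21.7 and 14.4, and *Trabd2b* at 30.2 and 51.9 against 12.6 and 23.9. In *Otof Cdh13* nuclei with *Grik1*, *Trabd2b* was at 28.6 and 47.3 CPM, *Glis3* at 37.3 and 51.5 and *Smoc1* at 25.3 and 48.7. The ranges of *Trabd2b* and *Glis3* overlapped those of members, and both sums of *Smoc1* lay below them.

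**Figure D1:**
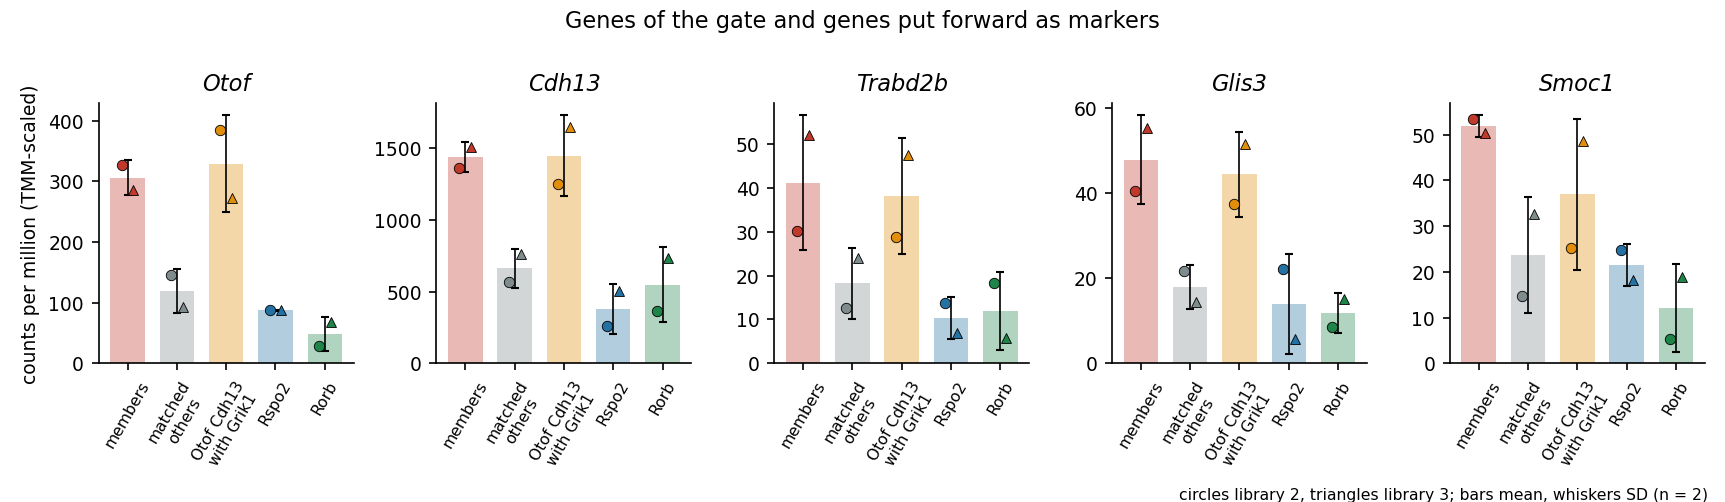
Summed expression (CPM, TMM-scaled, linear axes from 0) of the gate genes *Otof* and *Cdh13* and of *Trabd2b*, *Glis3* and *Smoc1* in members, matched others, *Otof Cdh13* nuclei with *Grik1*, *Rspo2* nuclei and *Rorb* nuclei. Circles are library 2, triangles library 3, bars the mean and whiskers the SD (n = 2). The means of members and of nuclei with *Grik1* stand above those of the remaining sets in all 5 genes, by construction for *Otof* and *Cdh13*.

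Genes that the gates did not use were then compared between members and the others, to see how their expression differs between nuclei matched by UMI total only. A difference from the others is not shown to be particular to members. The main test, which has no library block, called no gene between members and *Otof Cdh13* nuclei with *Grik1*. Some alternative settings did call genes there, as given at the end. UMIs were summed per set and library and tested with edgeR's quasi-likelihood test, with p-values adjusted by Benjamini-Hochberg over all genes tested. Of 9024 genes, 29 (0.321%) were higher and 95 (1.05%) were lower in members at an adjusted p under 0.05, and all 124 changed in the same direction in both libraries. A test on these same libraries favours genes that agree between them, so that this is not a replication. With library as a block, which takes up that both sums came from the same library, 182 were higher and 291 lower. The test has 2 sums on each side, so that its p-values measure the spread between these 2 libraries only. By contrast, DESeq2 called 6 and 42 genes, so that the number of calls depended on the test.

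Of the 29 higher genes, the 12 named by rule include a transcription factor, a chloride channel, a potassium channel subunit, regulators of small GTPases and genes of surface glycans. *Chst9*, a carbohydrate sulfotransferase, was at 231 and 281 CPM in members and 57.3 and 131 in the others, a log2 difference of 1.49 ± 0.26 (SE, adjusted p = 0.00109). *Arhgap6*, a GTPase-activating protein, was at 235 and 261 against 79.3 and 104 (1.45 ± 0.21, adjusted p = 0.000106). In both genes the 2 member sums lay above both sums of the others.

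*Meis2*, a TALE homeodomain transcription factor, was at 400 and 756 CPM in members and 171 and 267 in the others (log2 difference 1.39 ± 0.26, adjusted p = 0.00256), with the larger spread between libraries within members. *Ano2*, a calcium-activated chloride channel, was at 78.9 and 117 against 27.2 and 50.2 (1.37 ± 0.26, adjusted p = 0.0028). *Fbxl7*, an F-box protein of ubiquitin ligases, was at 137 and 133 against 54.8 and 67.8 (1.16 ± 0.21, adjusted p = 0.00125). *Kcnmb2*, an auxiliary subunit of large-conductance calcium-activated potassium channels, was at 130 and 139 against 67.1 and 58.2 (1.08 ± 0.20, adjusted p = 0.00254).

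The other named higher genes were *Gpc4*, a glypican (1.25), *Prex1*, a Rac exchange factor (1.14), *Trhr*, the receptor of thyrotropin-releasing hormone (1.09), *Gng7*, a G protein gamma subunit (1.06), *Fbxo10* (1.04) and *Ccdc88c* (1.04), each on the log2 scale. Of these, *Trhr* reached 59.7 and 109 CPM in members against 29.0 and 49.5 in the others. The call of *Gpc4* was the least stable of the 12, with an adjusted p under 0.05 in 3 of 16 alternative settings. *Ccdc88c* held in 5, *Prex1* in 6, *Fbxo10* in 7, *Trhr* in 8, *Ano2* in 10 and *Gng7* in 11. *Arhgap6* held in 15 of 16, *Chst9* and *Fbxl7* in 14, and *Meis2* and *Kcnmb2* in 12.

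Promoter sequences were read for the genes higher in members, since *Meis2* and *Rfx3* encode factors that bind DNA and were themselves among these genes. RefSeq promoters of GRCm38.p6, from 250 bases before to 50 after a start, were matched by symbol for 22 of the 29 genes, which gave 33 promoters. The 6 letters TGACAG, the core bound by MEIS factors, or their reverse complement CTGTCA, were in 12 of these 33 promoters (36.4%), in 15 of 117 promoters of the lower genes (12.8%), in 16.4% of the promoters of all tested genes and in 19.2% of the 32851 promoters of the table. The letters GTTGCC of the RFX half-site, or GGCAAC, were in 15.2%, 13.7%, 12.8% and 12.5%. Both motifs were picked after the genes were known, promoters of a gene can overlap, and a match of letters is a description, not a site. The promoters of *Rfx3* (chr19:28011117-28011416, minus strand), *Kcnmb2* (chr3:31902453-31902752, plus strand), *Ano2* (chr6:125710938-125711237, plus strand, 1 of 3 starts) and *Arhgap6* (chrX:169112628-169112927, plus strand, 1 of 3 starts) are shown because they belong to higher genes described here and each hold 2 matches. They are written 5' to 3' on the strand of the gene with the matched letters in capitals. Promoters of lower genes are not shown, although that of *Chrm2* also held both motifs. The promoter of *Hsd11b1* held both as well and is not shown. It is a higher gene outside those named by rule (log2 difference 3.24, adjusted p = 0.0164). The other starts of *Ano2* and *Arhgap6* held no match.
Rfx3: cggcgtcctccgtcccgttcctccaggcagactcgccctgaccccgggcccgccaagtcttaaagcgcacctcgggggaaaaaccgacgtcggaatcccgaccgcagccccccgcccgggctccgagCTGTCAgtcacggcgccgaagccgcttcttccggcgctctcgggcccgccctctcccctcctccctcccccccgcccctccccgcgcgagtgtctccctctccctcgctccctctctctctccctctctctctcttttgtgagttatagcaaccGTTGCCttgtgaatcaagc
Kcnmb2: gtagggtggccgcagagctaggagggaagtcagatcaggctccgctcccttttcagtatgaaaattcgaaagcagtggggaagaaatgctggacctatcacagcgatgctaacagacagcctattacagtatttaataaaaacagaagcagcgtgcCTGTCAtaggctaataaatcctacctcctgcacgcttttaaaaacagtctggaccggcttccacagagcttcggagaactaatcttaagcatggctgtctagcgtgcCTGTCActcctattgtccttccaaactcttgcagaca
Ano2: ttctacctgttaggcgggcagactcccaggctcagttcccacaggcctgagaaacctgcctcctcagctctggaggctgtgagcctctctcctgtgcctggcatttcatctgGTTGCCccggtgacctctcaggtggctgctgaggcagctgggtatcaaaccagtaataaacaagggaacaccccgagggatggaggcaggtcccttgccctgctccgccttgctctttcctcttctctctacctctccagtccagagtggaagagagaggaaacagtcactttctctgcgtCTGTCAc
Arhgap6: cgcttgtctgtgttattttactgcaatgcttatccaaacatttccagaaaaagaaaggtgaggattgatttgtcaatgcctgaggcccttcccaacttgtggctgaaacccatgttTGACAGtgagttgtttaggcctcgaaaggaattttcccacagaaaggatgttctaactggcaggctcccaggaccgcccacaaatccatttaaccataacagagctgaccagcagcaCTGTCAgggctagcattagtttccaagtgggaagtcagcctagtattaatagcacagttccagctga
In *Rfx3* and *Ano2* 1 match was of the MEIS core and 1 of the RFX half-site, and in *Kcnmb2* and *Arhgap6* both were of the MEIS core.

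**Figure D2:**
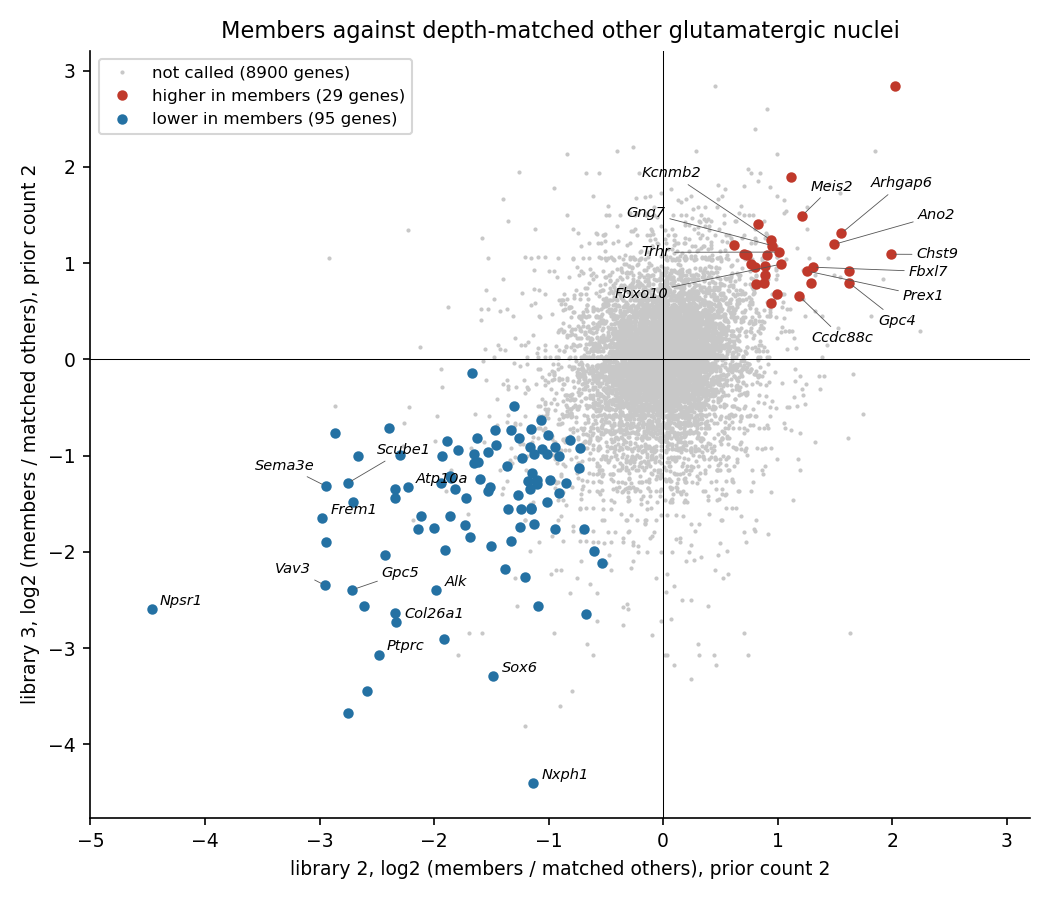
Log2 difference between members and matched others for each of 9024 genes in library 2 (horizontal) and library 3 (vertical), computed with a prior count of 2. Red points are the 29 genes called higher and blue points the 95 called lower, with the 12 largest of sufficient level labelled in each direction. All called genes lie on the same side of 0 in both libraries, which a test on the same 2 libraries favours.

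Of the named genes, the lower ones reached larger differences than the higher ones. *Npsr1*, the receptor of neuropeptide S, was at 8.92 and 29.2 CPM in members and 225 and 183 in the others, a log2 difference of -3.69 ± 0.31 (adjusted p = 2.01e-08). It had a UMI in 8.33% ± 0.462 of members and 21.5% ± 4.95 of the others, and oligodendrocyte nuclei had one in 3.53% ± 1.48 (SD, n = 2). *Gpc5*, a glypican, was at 34.3 and 60 against 232 and 321 CPM (-2.64 ± 0.26).

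*Vav3*, a guanine nucleotide exchange factor, was at 3.43 and 6.49 CPM in members and 35.3 and 38.3 in the others (-3.03 ± 0.43). *Frem1*, an extracellular matrix protein, was at 6.18 and 6.49 against 57.6 and 23.1 (-2.76 ± 0.45), and *Col26a1*, a collagen, at 8.24 and 3.24 against 46.8 and 28.7 (-2.55 ± 0.41). *Sema3e*, a secreted guidance cue, was at 6.86 and 14.6 against 61.5 and 38.3 (-2.45 ± 0.36). In each of these genes the members' sums lay below both sums of the others. Nuclei with *Grik1* also lay below both sums of the others in these 6 genes, with *Npsr1* at 19.3 and 55.6 CPM, *Gpc5* at 71.3 and 143, *Vav3* at 11.99 and 4.17, *Frem1* at 4.00 and 4.17, *Col26a1* at 10.7 and 6.95 and *Sema3e* at 7.33 and 8.35. *Npsr1*, *Vav3*, *Gpc5* and *Col26a1* kept their call in all 16 alternative settings, and so did *Cdh8*, *Chrm2* and *Sema6d* among the listed genes below.

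*Ptprc*, which encodes the leukocyte phosphatase CD45, had a log2 difference of -3.05, at 3.43 and 1.62 CPM against 25.1 and 23.1, and *Rspo2* nuclei held 52.5 and 40.8. The 9 microglial markers summed to 31.9 and 39.9 CPM in members and 36.3 and 45.2 in the others, with *P2ry12* the most abundant in members and *Tmem119*, *C1qa* and *C1qc* at 0 in both libraries. *Nxph1*, *Sox6* and *Alk*, which many interneurons also express, had log2 differences of -2.71, -2.54 and -2.45, and *Nxph1* differed between libraries within the others, at 103 and 368 CPM. The GABAergic markers *Gad1* and *Gad2* were at 0 in both sets by the gate, and 8 markers that the gate did not use summed to 3 and 5 UMIs in members (2.18 and 7.39 CPM of the plain sum) and 11 and 10 UMIs in the others (3.99 and 7.40 CPM). In nuclei with *Grik1*, *Ptprc* was at 3.33 and 11.1 CPM, *Nxph1* at 60.6 and 206, *Sox6* at 6.00 and 54.2 and *Alk* at 35.3 and 27.8. The part of microglial and GABAergic RNA in these differences was not tested. *Scube1* (-2.40) and *Atp10a* (-2.06) complete the named lower genes.

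**Figure D3:**
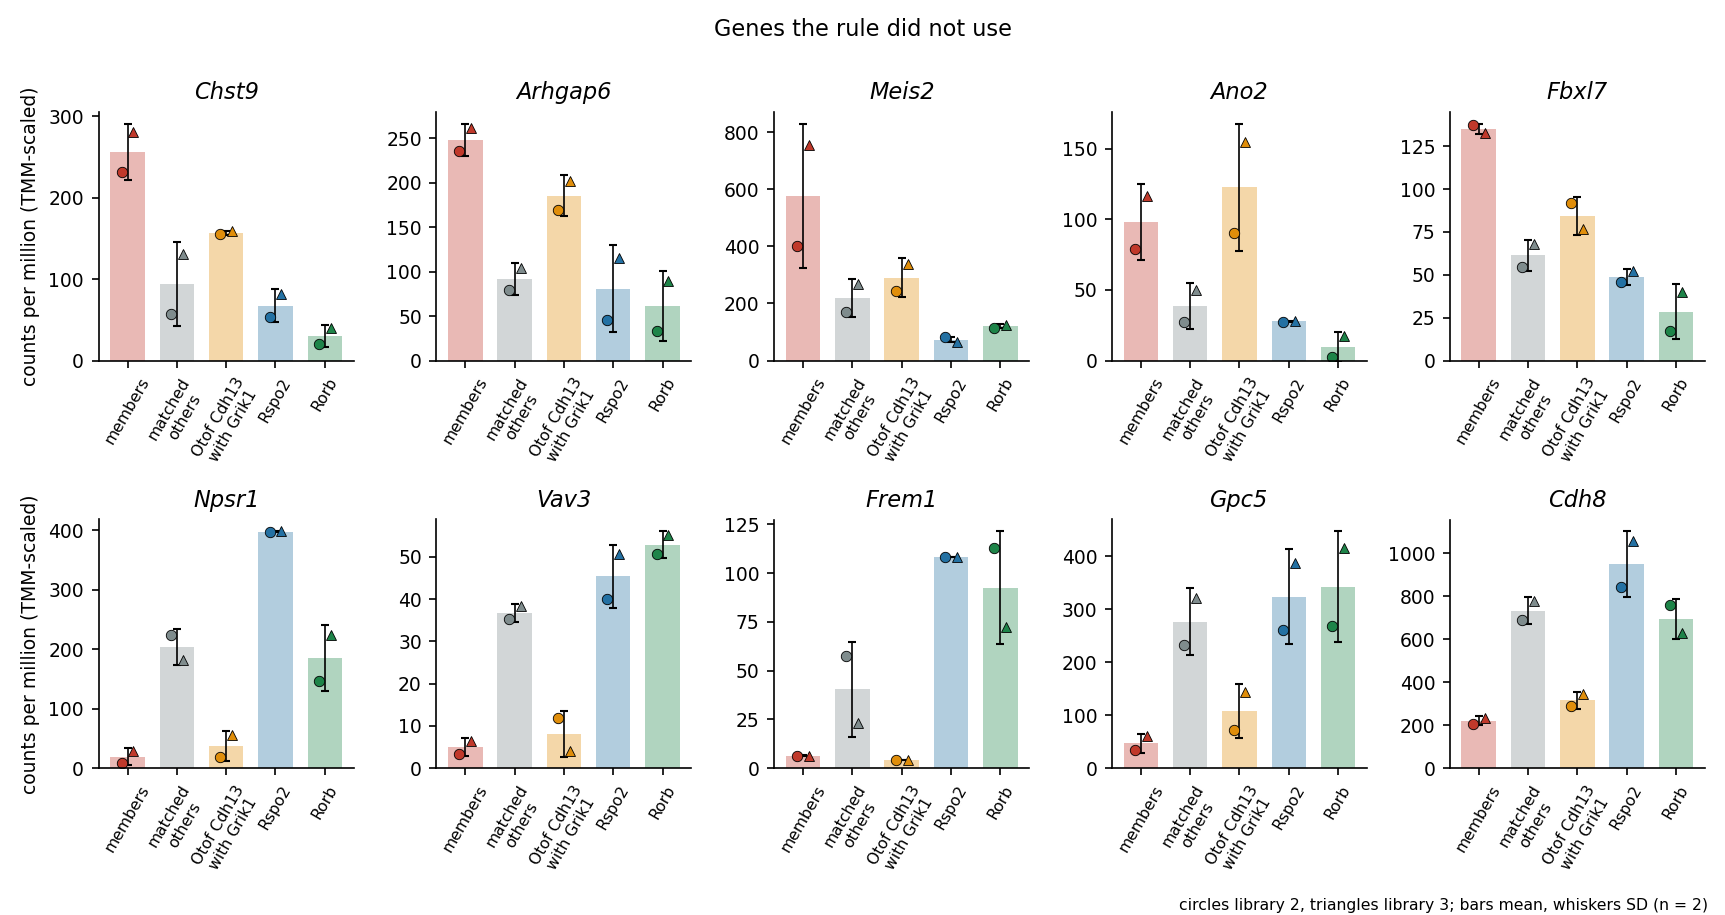
Summed expression (CPM, TMM-scaled, linear axes from 0) of 5 genes higher and 5 genes lower in members than in the matched others, in members, others, *Otof Cdh13* nuclei with *Grik1*, *Rspo2* nuclei and *Rorb* nuclei. Circles are library 2, triangles library 3, bars the mean and whiskers the SD (n = 2). The means of nuclei with *Grik1* lie between those of members and others in *Chst9*, *Arhgap6* and *Meis2*, and nearer to members than to others in *Npsr1*, *Vav3*, *Frem1*, *Gpc5* and *Cdh8*.

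Genes were next grouped by role, in lists that were drawn up with earlier results of these data known. Counts of called list members stand beside 0.321% higher and 1.05% lower over all tested genes, or 182 and 291 of 9024 with the library block, and counts with the block are given where they differ. Many calls of single list genes were lost in other settings. *Lmo4*, *Kcnn2*, *Cdh7* and *Dkk3* held in 6 of 16 settings, *Cdh12*, *Cdh20* and *Grm8* in 7, *Rfx3*, *Unc13c*, *Cdh22*, *Htr1f* and *Mgll* in 8, *Kcnk2* in 9 and *Tshz3* in 10, while *Oprk1* held in 7 of the 13 and *Cdh23* in 9 of the 12 settings that gave a value. Of 30 tested transcription factors of pallial projection neurons, *Meis2* and *Rfx3* were higher and *Lmo4* and *Tshz3* lower (4 and 4 with the block), and the list's median log2 difference was -0.03 beside 0.01 over all tested genes. *Rfx3*, a winged-helix factor known for cilia genes, was at 680 and 899 CPM in members and 366 and 459 in the others (0.93 ± 0.23, adjusted p = 0.0354). *Lmo4*, a LIM-only cofactor, was at 35 and 37.3 against 88.4 and 52.6 (-1.02 ± 0.26), and *Tshz3*, a zinc finger factor, at 52.2 and 64.9 against 106 and 112 (-0.93 ± 0.22). *Rfx3* was found in 93.7% of members, 80.2% of the others and 45.3% of oligodendrocyte nuclei.

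Of 14 cadherin genes tested, *Cdh13* apart, 2 were higher and 4 lower (2 and 6 with the block), with a median log2 difference of -0.17. *Cdh7* was at 211 and 245 CPM in members against 119 and 142 in the others (0.80 ± 0.20) and *Cdh22* at 194 and 203 against 118 and 94.1 (0.88 ± 0.20). *Cdh8*, a classical cadherin of the same type as *Cdh7*, was at 207 and 235 against 689 and 778, a log2 difference of -1.74 ± 0.23 (adjusted p = 3.37e-05), and its member sums lay far below both sums of the others. *Cdh12* (-0.96), *Cdh20* (-1.79) and *Cdh23* (-3.35) were also lower, the last from 19.2 and 9.57 CPM to 1.37 and 1.62. Of 8 non-clustered protocadherins none was called, and with the block 1 was higher and 1 lower.

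Among guidance genes, *Sema3e* and *Sema6d* of 21 semaphorins, plexins and neuropilins and *Epha7* of 23 ephrin, netrin and slit genes and receptors were lower. *Sema6d*, a transmembrane semaphorin, was at 113 and 82.7 CPM against 253 and 246 (-1.32 ± 0.21), and *Epha7*, an ephrin receptor, at 98.9 and 118 against 222 and 224 (-1.06 ± 0.20). With the block, 4 semaphorin family genes were lower, and of the ephrin, netrin and slit group 3 were higher and 9 lower.

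Of the glutamate receptor genes, *Grik3*, the kainate subunit GluK3, was the only one called of the 4 kainate subunits tested besides *Grik1*, at 60.4 and 50.3 CPM in members against 147 and 136 in the others (-1.33 ± 0.21, adjusted p = 0.000417). *Grik2* was at 1444 and 2018 CPM against 1461 and 1954, a difference of 0.02 ± 0.28. *Grm3* (-1.08 ± 0.20) and *Grm8* (-1.05 ± 0.26), metabotropic receptors that lower cyclic AMP, were lower of 6 tested, and with the block 1 was higher and 3 lower. None of 11 AMPA, NMDA and delta subunits and none of 12 GABA-A subunits was called, and with the block 1 of each group was lower.

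In other receptor families, *Htr1f*, an inhibitory serotonin receptor, was at 145 and 242 CPM against 349 and 428 (-1.04 ± 0.23). *Chrm2*, the M2 muscarinic receptor, was at 34.3 and 32.4 against 99.5 and 128 (-1.74 ± 0.24). They were the 2 lower of 11 monoamine and acetylcholine receptors tested (1 higher and 4 lower with the block), and *Oprk1*, the kappa opioid receptor, was the 1 lower of 11 listed neuropeptide receptors, at 1.37 and 6.49 against 18.2 and 11.96. That list does not hold *Npsr1* and *Trhr*, which are receptors of this kind and were called lower and higher as given above. Of 7 endocannabinoid genes only *Mgll*, the lipase that degrades 2-arachidonoylglycerol, was called, at 30.2 and 21.1 CPM against 66.4 and 53.4 (-1.17 ± 0.26).

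Of 39 potassium channel genes, *Kcnmb2* was higher and *Kcnip1*, *Kcnk2* and *Kcnn2* were lower, and with the block 2 were higher and 10 lower. *Kcnn2*, a small-conductance calcium-activated channel, was at 121 and 139 CPM in members against 214 and 250 in the others (-0.84 ± 0.20, adjusted p = 0.0286). No sodium, calcium or HCN channel of 22 tested was called, whereas 3 were higher and 3 lower with the block. Of 22 genes of vesicle release, the group to which *Otof* belongs, *Rph3a* (-1.23 ± 0.27), which encodes rabphilin, and *Unc13c* (-1.09 ± 0.22), a priming factor, were lower (1 higher and 3 lower with the block). *Dkk3* (-1.47) was the 1 gene called of 8 Wnt genes tested (2 higher and 1 lower with the block), and of 17 SPARC family and BMP genes none was called (2 higher and 2 lower with the block).

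Of the 10 marker genes that the study mapped in the BLA, 5 took no part in the gates and were tested, and none was called against the others. *Lypd1* was at 269 and 431 CPM in members and 221 and 262 in the others (0.52, 95% interval 0.06 to 0.98, adjusted p = 0.501), and *Etv1* at 76.9 and 98.9 against 135 and 146 (-0.70, interval -1.13 to -0.28, adjusted p = 0.105). *Sema5a* (-0.81, adjusted p = 0.0764), *Adamts2* (-0.71, adjusted p = 0.193) and *Bdnf* (-0.39, adjusted p = 0.998) did not pass either. With library as a block, *Lypd1* was higher and *Etv1*, *Sema5a* and *Adamts2* were lower, at adjusted p of 0.00371, 0.000296, 7.34e-05 and 0.0113.

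Cell type markers were summed as CPM of the plain sum without TMM scaling. Since the gates act on members and others alike, gate genes were left out of the glutamatergic and astrocyte sums. The 7 remaining glutamatergic markers gave 3177 and 2814 CPM in members, 3136 and 2827 in the others and 458 and 788 in oligodendrocyte nuclei, with *Gria2* the most abundant. *Neurod6*, a transcription factor of pallial excitatory neurons, was at 0 in members of both libraries, and *Rspo2* nuclei held 28 and 5 UMIs of it, a level at least 7.32-fold higher than the 3 UMIs that a count of 0 over all members allows. With the same 3 UMIs allowed in each library alone, this bound was 5.59-fold in library 2 and 1.43-fold in library 3. *Neurod6* was also rare in nuclei with *Grik1* (2.33% and 4.17% with a UMI) and in the others (6.73% and 5%). *Rspo2* nuclei, at 22.2% and 11.6%, were deeper than members, and in thinned nuclei their shares were 2.04% and 2.33%. Of the same list, *Nrgn* was found in 56.7% and 50% of members against 45.7% and 37% of the others. For *Neurod2* these shares were 24.0% and 0% against 16.8% and 9%. Oligodendrocyte markers summed to 149 and 152 CPM in members against 91.8 and 112 in the others, *Mbp* the most abundant, and of 3 genes tested none was called, or 1 higher with the block. The 8 remaining astrocyte markers summed to 90.7 and 123 against 60.3 and 138, nearly all of it *Slc4a4*. Precursor markers summed to 315 and 217 CPM against 389 and 452, nearly all of it *Lhfpl3*, with *Pdgfra*, *Olig1* and *C1ql1* at 0 in members. Of 2 precursor genes tested none was called, or 1 lower with the block. Markers of claustrum and endopiriform neurons summed to 404 and 294 CPM against 397 and 414, with *Synpr* the most abundant. Of 5 genes tested of that list 1, *Oprk1*, was lower, also with the block, and the part of such neurons in the results was not tested.

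*Otof Cdh13* nuclei with at least 1 *Grik1* UMI differ from members by a single gate. In the fit of all 4 sets, edgeR called 0 of 8124 genes higher (0%) and 0 lower (0%) in members, with 129 and 133 genes at an unadjusted p under 0.05, and DESeq2 also called 0 and 0. With library as a block, 6 genes were higher and 10 lower in members. A count of 0 here does not show that the sets were alike.

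Under the block, members were higher in the transcription factors *Meis2* (log2 difference 0.94 ± 0.18, adjusted p = 0.0442 with the block, 0.959 without), *Nfib* (0.70 ± 0.14) and *Ebf1*, in *Tmem132d* (0.89 ± 0.14), in the Nogo receptor-like gene *Rtn4rl1* (0.92 ± 0.17) and in *Hs6st3* (0.90 ± 0.18), a heparan sulfate sulfotransferase. *Meis2* was at 397 and 748 CPM in members and 242 and 338 in nuclei with *Grik1*. *Ebf1* had 13 and 10 UMIs in members and 0 in nuclei with *Grik1*, a level at least 8.11-fold higher than the 3 UMIs that a count of 0 over that set allows, but only 3.44% ± 0.789 of members had one (SD, n = 2). Within single libraries the bound was 4.41-fold and 3.80-fold.

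The 10 lower genes under the block included *Sema5a*, *Col25a1*, *Plpp3*, *Cntnap4* and *Gpc5*. *Sema5a*, a semaphorin with thrombospondin repeats, was at 58.0 and 59.4 CPM in members against 192 and 195 (-1.69 ± 0.28, adjusted p = 0.0151 with the block, 0.581 without). *Col25a1*, a transmembrane collagen, was at 209 and 279 against 482 and 601 (-1.16 ± 0.14, adjusted p = 0.000992 with the block, 0.299 without). *Plpp3*, a lipid phosphatase, was at 8.19 and 8.03 against 44.6 and 38.9, and without the block it had the smallest adjusted p of these 16, 0.0698. For each of these genes the sums of the 2 sets did not overlap.

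Some of the genes higher in members than in the others were compared with nuclei with *Grik1* by the 95% interval of the log2 difference without the block, none of them with a call. They were picked by their difference from the others, which uses the same member sums. The intervals are not adjusted for the number of genes. Intervals above 0 are thus favoured by the choice, and no conclusion is drawn from them. *Gpc4*, *Prex1*, *Fbxo10* and *Ccdc88c* were given no interval. The interval lay above 0 for *Meis2* (0.41 to 1.54), *Chst9* (0.19 to 1.18), *Fbxl7* (0.16 to 1.15), *Gng7* (0.15 to 1.07) and *Kcnmb2* (0.02 to 0.84). It included 0 for *Ano2*, *Rfx3*, *Arhgap6* and *Trhr* (-0.32, interval -1.05 to 0.40). The same held for *Spata13* (0.48, interval -0.66 to 1.61), a higher gene outside those named by rule. *Ano2* was at 78.5 and 116 CPM against 90.6 and 154 (-0.34, 95% interval -1.02 to 0.34), *Rfx3* at 676 and 890 against 853 and 1114 (-0.33, interval -0.94 to 0.28) and *Arhgap6* at 234 and 259 against 169 and 202 (0.41, interval -0.32 to 1.15).

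The *Grik1* gate was examined by the number of UMIs, with the other gates held and without a test. Nuclei with 0, 1, 2 and 3 or more *Grik1* UMIs numbered 104, 17, 17 and 52 in library 2 and 50, 15, 6 and 27 in library 3. *Sema5a* was at 61.7, 47.3, 69.6 and 302 CPM in library 2 and 54.7, 63.9, 210 and 238 in library 3. Nuclei with 1 *Grik1* UMI, just outside the gate, thus had *Sema5a* levels like those of members. Nuclei with 3 or more had higher levels than members in both libraries. In library 3 the 6 nuclei with 2 UMIs were already near that level, whereas in library 2 those with 2 UMIs were not.

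*Meis2* was at 422, 480, 348 and 155 CPM over the same steps in library 2 and at 689, 460, 168 and 269 in library 3, lower at 3 or more UMIs than at 0 in both. *Chst9* went from 244 to 104 and from 256 to 111 between the first and last step, and *Col25a1* from 222 to 584 and from 257 to 781. These levels are CPM of plain sums, without TMM scaling. Nuclei with 3 or more *Grik1* UMIs were deeper than members, with medians of 15783.5 and 14189 UMIs, and the part of depth was not tested here.

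The *Otof* and *Cdh13* gates were examined likewise. Just outside the *Otof* gate, 27 and 23 nuclei with 1 UMI had *Meis2* at 264 and 414 CPM, and just inside it 30 and 22 nuclei with 2 UMIs had 347 and 767. *Ano2* was at 21.5 and 13.97 CPM outside and at 20.4 and 100 inside, so that library 2 showed the higher level only at 3 or more UMIs, with 108. Members with 4 to 7 *Cdh13* UMIs, 21 and 10 nuclei, had *Ano2* at 19.5 and 9.88, *Glis3* at 6.50 and 0 and *Rfx3* at 416 and 534 CPM. Members with 8 or more, 83 and 40 nuclei, had *Ano2* at 91.5 and 123, *Glis3* at 47.4 and 59.1 and *Rfx3* at 756 and 869 CPM. The latter were deeper, with medians of 13963 and 12340.5 UMIs against 6903 and 8511.5, and the part of depth in these levels was not tested. In nuclei just outside this gate, 12 and 5 with 2 or 3 *Cdh13* UMIs, *Ano2* was at 0 in both libraries, but at 0 or 1 *Cdh13* UMI (20 and 6 nuclei) it was at 4.90 and 31.3 CPM, from 1 and 2 UMIs. *Meis2* was at 299, 416, 462 and 417 CPM in library 2 at 0 to 1, 2 to 3, 4 to 7 and 8 or more *Cdh13* UMIs, and at 610, 1348, 1452 and 554 in library 3. In both libraries it was thus higher at each step up to 4 to 7 UMIs, and lower at 8 or more than at 4 to 7.

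*Meis2* also varied among members, from 0 to 50 UMIs in library 2 (median 2, with 42 of 104 at 0) and from 0 to 32 in library 3 (median 5.5, with 18 of 50 at 0). It was found in 61.8% ± 3.10 of members, 37.1% ± 4.15 of the others and 18.9% ± 2.99 of oligodendrocyte nuclei (SD, n = 2). After thinning to 4900 UMIs the shares were 55.9%, 28.8% and 42.5%, the last from the same 20 deep oligodendrocyte nuclei in each library.

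**Figure D4:**
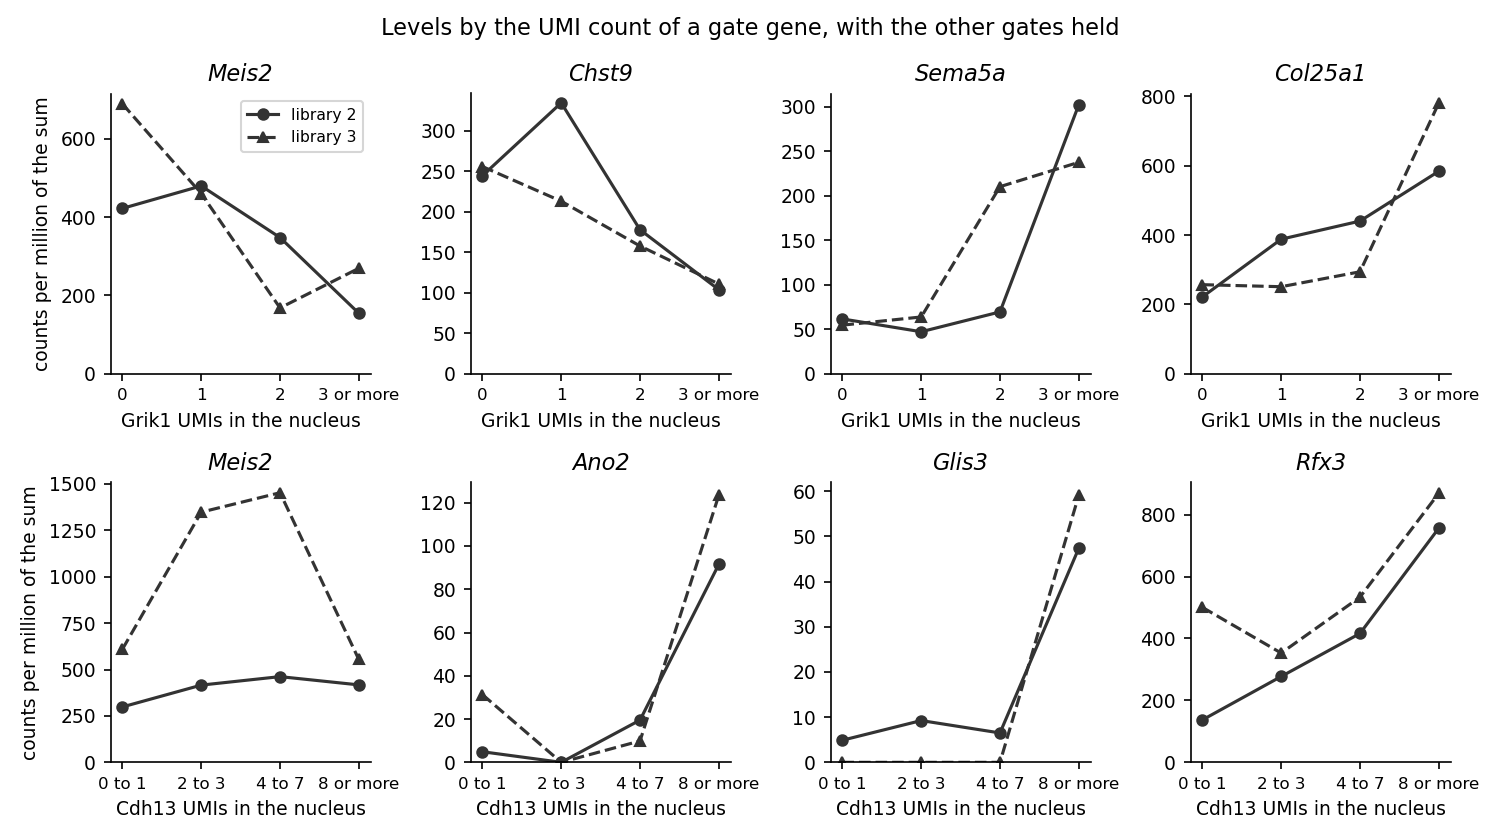
Expression (CPM of the sum, linear axes from 0) of 4 genes by the number of *Grik1* UMIs in a nucleus (top) and of 4 genes by the number of *Cdh13* UMIs (bottom), with the other gates held. Circles with solid lines are library 2, triangles with dashed lines library 3, without replicates within a library. *Sema5a* and *Col25a1* are higher at 3 or more *Grik1* UMIs than at 0 in both libraries, *Meis2* and *Chst9* are lower there, and *Ano2*, *Glis3* and *Rfx3* are highest at 8 or more *Cdh13* UMIs.

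Sets with *Rspo2* (99 and 43 nuclei) or *Rorb* (60 and 45 nuclei) at 2 UMIs or more differed from members in more called genes than nuclei with *Grik1* did. The gates favour this order. Nuclei with *Grik1* pass the *Otof*, *Cdh13*, *Rspo2* and *Rorb* gates of members, whereas the *Rspo2* and *Rorb* sets were defined by failing the gate of their gene. Against *Rspo2* nuclei, 117 of 8124 genes (1.44%) were higher and 187 (2.3%) lower in members, and with the library block 307 and 373. Against *Rorb* nuclei, 76 (0.935%) were higher and 162 (1.99%) lower, and with the block 241 and 367. In library 2, *Rspo2* nuclei had a median of 21614 UMIs, the deepest of these sets, and in nuclei thinned to 4900 UMIs the test called 77 and 121 genes.

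*Meis2* was at 80.6 and 66.1 CPM in *Rspo2* nuclei and 115 and 125 in *Rorb* nuclei against 397 and 748 in members, log2 differences of 2.92 ± 0.29 (adjusted p = 7.25e-05) and 2.24 ± 0.29 (adjusted p = 0.000393). *Npsr1* was at 397 and 398 CPM in *Rspo2* nuclei, against 8.88 and 28.9 in members (-4.65 ± 0.44). *Sema3e* (-3.57), *Frem1* (-4.09), *Ptprc* (-4.02), *Vav3* (-3.30) and *Oprk1* (-3.46) were lower in members too. Besides *Meis2*, the genes named for the size of their difference above *Rspo2* nuclei were *Abi3bp* (3.07), *Slc4a4* (2.73), *Chn2* (2.61), *Dchs2* (2.61) and *Slc29a4* (2.27). *Slc4a4*, a bicarbonate transporter that astrocytes also express, was at 76.5 and 125 CPM in members and 15.4 and 12.7 in *Rspo2* nuclei. Without the gate genes, the 8 astrocyte markers summed to 90.7 and 123 CPM of the plain sum in members and to 17.8 and 16.5 in *Rspo2* nuclei, with *Slc4a4* itself the most abundant in both, and the part of astrocyte RNA in this difference was not tested.

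Of the study's marker genes, *Etv1* was lower than in *Rspo2* nuclei, at 76.5 and 97.96 CPM against 207 and 219 (-1.31 ± 0.23, adjusted p = 0.00408), and *Lypd1* was higher, at 268 and 427 against 138 and 214 (0.997 ± 0.26, adjusted p = 0.0495). The call of *Lypd1* held in 6 of 10 alternative settings and was lost with looser gates, stricter gates, another scaling and without the members of library 3 (0.63). *Zbtb20* was another transcription factor higher in members, at 196 and 296 against 45.6 and 88.6 (1.95 ± 0.38). *Unc13c* and *Cplx2*, genes of vesicle release, were higher than in *Rspo2* nuclei (2.19 ± 0.44 and 1.45 ± 0.29), whereas *Unc13c* was lower than in the others. The cannabinoid receptor gene *Cnr1* was lower, at 33.5 and 28.9 CPM against 81.5 and 66.1 (-1.24 ± 0.23).

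Against *Rorb* nuclei, *Ano2* had the largest difference of the named higher genes, at 78.5 and 116 CPM against 2.15 and 17.1 (3.58 ± 0.51, adjusted p = 0.000969). *Chst9* (3.15 ± 0.30), *Npr3*, the natriuretic peptide clearance receptor (2.86), *Slc39a12*, a zinc transporter (2.748), *Fbxl7* (2.35) and *Plce1*, a phospholipase C (2.32), followed. *Col26a1* was at 8.19 and 3.21 CPM in members against 195 and 118 (-4.57 ± 0.37), and *Lhfp* (-4.67), *Pde3a* (-4.19), *Cpne9* (-4.12), *Frem1* (-3.91) and *Kcnh8* (-3.78) were lower as well. *Pdgfra*, known as the marker of oligodendrocyte precursors, was at 0 in members and had 11 and 17 UMIs in *Rorb* nuclei, a level at least 12.8-fold higher than the 3 UMIs that a count of 0 over all members allows (5.54-fold and 6.51-fold within single libraries). As CPM of the plain sums, precursor markers reached 481 and 646 in *Rorb* nuclei against 315 and 217 in members, with *Lhfpl3* the most abundant, and 3 of them were lower in members with the block. Astrocyte markers without the gate genes reached 116 and 190 against 90.7 and 123, with *Slc4a4* the most abundant, and the part of glial RNA in these differences was not tested. *Mgll* was at 30.0 and 20.9 CPM against 139 and 131 (-2.33 ± 0.23), and *Htr2a*, a serotonin receptor, at 9.56 and 12.9 against 55.97 and 51.3 (-2.32 ± 0.43). *Cdh9* went opposite ways, lower than in *Rspo2* nuclei (-1.19 ± 0.26) and higher than in *Rorb* nuclei (1.12 ± 0.27).

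Likeness was also described without any gate gene, by the 15 nearest nuclei of the same library in 15 principal components of 2000 variable genes from which the gate and put-forward genes were removed. Of the neighbours of members, 35.3% and 33.9% were members, who made up 12.7% and 10.3% of the base. Nuclei with *Grik1* were 19.0% and 18.7% of these neighbours, against 10.5% and 9.86% of the base. *Rspo2* nuclei were 6.60% and 4.67% (12.1% and 8.83% of the base) and *Rorb* nuclei 1.92% and 3.87% (7.33% and 9.24%). The remaining 37.2% and 38.9% were base nuclei of no set. Both libraries thus gave the same order, and the shares are a description without a test. The sets themselves were still defined by the gates, which favour this order.

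**Figure D5:**
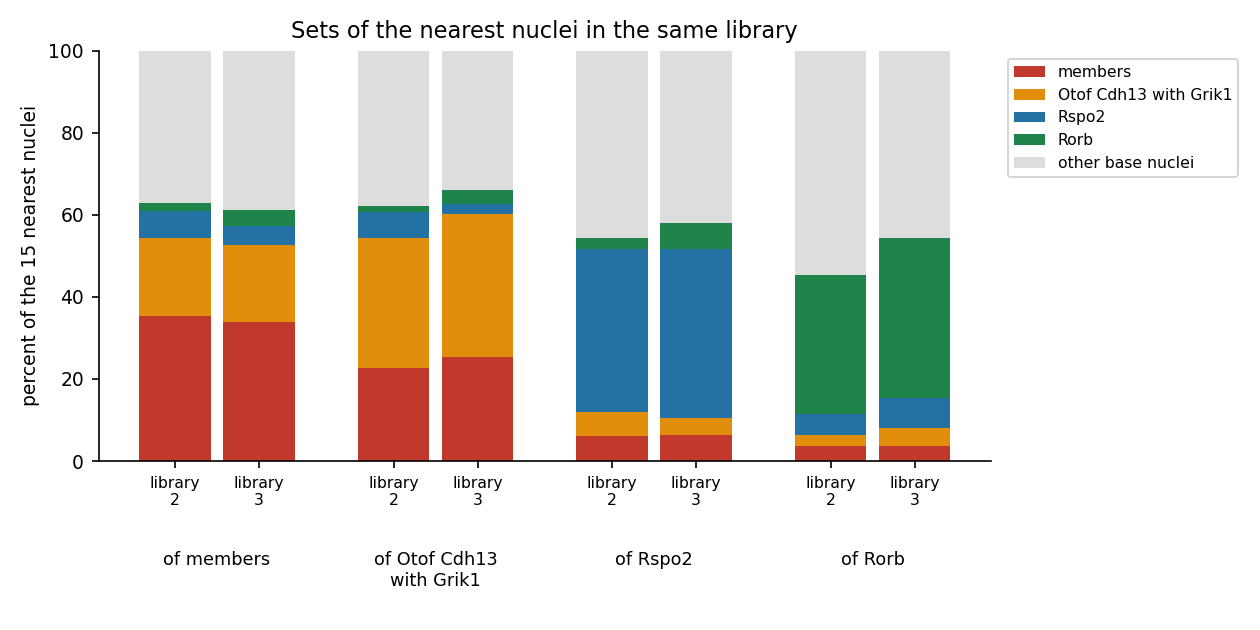
Percent of the 15 nearest nuclei of the same library that belong to each set (stacked to 100%), for members, *Otof Cdh13* nuclei with *Grik1*, *Rspo2* nuclei and *Rorb* nuclei, with 1 bar per library. Members and nuclei with *Grik1* have each other among their neighbours at 18.7% to 25.3%, while *Rspo2* and *Rorb* nuclei make up at most 6.60% of the neighbours of members.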

How the data were processed

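Single-nucleus RNA-seq of 3 libraries was used, of which libraries 2 and 3 entered the comparisons, since library 1 held 1 member. Per the labels, the authors aligned reads to mm10 with Cell Ranger 7.0.1, and the deposited matrices hold whole-number UMI counts of 32285 genes per barcode, without normalization. Total counts per library were 8078394, 24354374 and 33049068. Members and gene lists were chosen with earlier results of these data known, and so were the alternatives. No doublet caller was run, and an alternative left out nuclei above the 95th percentile of UMIs or with over 0.1% of UMIs from markers of glial, vascular or ependymal cells.

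Counts were summed over nuclei per set and library and tested with edgeR 4.0.16 (R 4.3.3), using TMM scaling, its filter on low counts, the quasi-likelihood test (two-sided) and Benjamini-Hochberg adjustment at 0.05 over all genes tested. DESeq2 1.42.0 was an alternative. The test was checked on simulated data. Others were matched to members within 0.25 on the log2 scale of UMIs. One fit held members and others, and another held members and the *Grik1*, *Rspo2* and *Rorb* sets, so that members' CPM differs slightly between fits. Gate genes, put-forward markers and mitochondrial genes were left out of the calls. Named genes were the 12 largest differences in each direction against the others, and the 6 largest against the *Rspo2* and *Rorb* sets, past the threshold, with at least 20 CPM in the higher set and the same sign in both libraries, together with called list members and the study's markers. Genes named from the library-blocked comparison with nuclei with *Grik1*, and the genes shown by gate level, were chosen after their values were seen.

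Both sums of a library came from the same pooled brains and library preparation, so that library number pairs them. The library 2 minus library 3 differences of members correlated over genes at 0.257 with those of the others, 0.254 with the *Grik1* set, 0.213 with the *Rspo2* set and 0.190 with the *Rorb* set. Intervals cover counting error only, unless given for a log2 difference. Fold bounds against a count of 0 take UMIs as independent counts and do not cover the spread between nuclei. Alternatives changed the gates, matching, depth, filter, tool and library block. Each sum of members was left out in turn, and in the comparison with the others also each sum of the others. Some genes of the lists are not reported here.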

Additional observations from a re-analysis of the deposited data

Results flagged for a closer look

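Library 1 entered no comparison. Among its 58 glutamatergic base nuclei, 6 met the gates of *Otof Cdh13* nuclei with *Grik1* (10.3%, 95% exact binomial interval 3.89 to 21.2) and 7 those of *Rorb* nuclei (12.1%, interval 4.99 to 23.3). They are listed because each count is above 3, the most that a count of 0 allows. In libraries 2 and 3 these shares were 10.5% and 9.86% for *Grik1* and 7.33% and 9.24% for *Rorb*. Only 1 nucleus (1.72%, interval 0.04 to 9.24) was a member, against 12.7% (10.5 to 15.2) and 10.3% (7.72 to 13.3) in libraries 2 and 3.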

How the results depend on the processing

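The number of calls depended strongly on the setting. Against the others, where 29 genes were higher and 95 lower, DESeq2 called 6 and 42, the library block 182 and 291, thinned nuclei 13 and 56, doublet limits 12 and 56, unmatched others 7 and 53, 1 match per member 10 and 54, and others without *Otof*, an alternative chosen after seeing the data, 109 and 203. Stricter and looser gates each called 8 higher, and without a filter 146 were lower. Leaving out 1 sum at a time gave 14 to 26 higher and 68 to 89 lower, with 14 when library 2 of the others was left out. The lone sum then left on a side was assumed to vary like the remaining set. Against nuclei with *Grik1*, *Rspo2* nuclei and *Rorb* nuclei, only sums of members were left out. Against nuclei with *Grik1*, where none was called, no filter called 4 higher and 11 lower, the block 6 and 10, and doublet limits 4 lower, while thinned nuclei, stricter gates and pairing by depth (also added after seeing the data) each called 1 lower. Against *Rspo2* nuclei, with 117 and 187, DESeq2 called 65 and 118, no filter 235 and 296, the block 307 and 373, thinned nuclei 77 and 121, and leaving out 1 sum 45 to 62 and 85 to 110. Against *Rorb* nuclei, with 76 and 162, no filter called 169 and 275, the block 241 and 367, doublet limits 130 higher, and leaving out 1 sum 35 to 58 and 56 to 129, with 35 and 56 when library 2 of members was left out. Every gene called without the block was also called with it.

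The members' share of 11.5% became 6.82% with stricter gates, 18.3% with looser gates, 13.4% with doublet limits and 6.13% after thinning, and was 10.3 to 12.7% in libraries 2 and 3 taken singly (1.72% in library 1, 1 of 58 nuclei). Of the log2 differences of single genes, 14 changed sign, all of study markers that were not called. Against the others *Sema5a* was at 0.17 with others without *Otof*. Against nuclei with *Grik1*, *Adamts2* was at -0.289 to 0.0473 without 1 sum of members (0.0473 without library 3), 0.116 thinned and 0.0548 with stricter gates, and *Lypd1* at -0.506 to 0.163 without 1 sum of members (0.163 without library 2). Against *Rorb* nuclei, *Sema5a* was at 0.29 thinned and 1.54 with doublet limits, *Etv1* at -0.0119 with the block, -0.13 to 0.237 without 1 sum of members (-0.13 without library 3), -0.27 with doublet limits and -0.32 with stricter gates, and *Lypd1* at -0.28 to 0.407 without 1 sum of members (-0.28 without library 3), -0.043 thinned and -0.14 with doublet limits. The cause of these changes was not tested.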
